A study of Mus musculus with 6 samples.

Results

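Splicing factor and hnRNP genes were followed in LT-HSCs (long-term hematopoietic stem cells) of WT and Foxm1 HET mice. They were taken as every gene of the deposited normalized table whose symbol starts with Srsf, Hnrnp, Sf3a, Sf3b, Snrp or U2af, which gave 52 of 12179 genes. Of these, 11 are Srsf genes, 20 are Hnrnp genes, 8 are Sf3a or Sf3b genes, 10 are Snrp genes and 3 are U2af genes. The rule uses symbols only, and the families were chosen with earlier results of these data known.

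Introns are removed from precursor RNA by the spliceosome, in which U2AF reads the 3′ end of the intron, the SF3A and SF3B complexes hold the U2 particle at the branch point, and the Snrp genes encode Sm and other proteins of the small nuclear ribonucleoproteins. SR proteins, encoded by the Srsf genes, mostly favour the use of the exons they bind, and hnRNPs coat the precursor RNA and often act against them. SRSF2, SF3B1 and U2AF1 are recurrently mutated in myelodysplastic syndromes, which is why their mouse genes are given in full here.

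RNA-Seq was performed on CD150+CD48-LSK cells sorted from the BM (bone marrow) of C57BL/6 mice at 8 weeks of age, with 3 WT and 3 Foxm1 HET libraries. Foxm1, a forkhead transcription factor, is the gene that was deleted on 1 allele. The Foxm1 HET libraries have titles that give the floxed allele and no Cre driver. The study's methods describe Tie2-Cre, active in endothelial and blood cells, and the inducible Mx1-Cre. Elsewhere they give the name Foxm1 HET to mice with Tie2-Cre and 1 floxed allele. In a leukemia model they give the name WT to mice with 1 floxed allele and no Cre named. The Foxm1 HET titles here match that control genotype, and the genotype labels were used. Whether the WT mice of these libraries carry the floxed allele is not given. The RNA-Seq part of the methods names no driver and speaks of 3 pairs of mice.

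Library totals ran from 14573002 to 25798509 counted reads, with the fewest reads in Foxm1 HET replicate 2, which also had the fewest genes with at least 10 reads (4467, against 5963 to 9894 in the other libraries). Foxm1 had 1182, 2615 and 2942 reads in WT against 659, 5 and 742 in Foxm1 HET. Of 10 LT-HSC marker genes, 7 to 10 had at least 10 reads in each library. Their summed level was 2870 to 6464 CPM (counts scaled to library size) in WT and 3977 to 5477 CPM in Foxm1 HET. Of 10 neutrophil genes, 9 or 10 had at least 10 reads, with a summed level of 5466 to 15864 CPM in WT and 1565 to 8422 CPM in Foxm1 HET. Of 8 listed erythroid genes, 7 were found, with summed levels of 112 to 158 CPM in WT and 195 to 297 CPM in Foxm1 HET and with Hba-a1 at 0. Summed macrophage markers were 13.6 to 206 CPM in WT and 4.65 to 193 CPM in Foxm1 HET, and summed B cell markers 12.6 to 200.2 CPM in WT and 0 to 6.68 CPM in Foxm1 HET. Megakaryocyte markers summed to at most 11.9 CPM in any library. The macrophage markers C1qa and C1qb and the B cell markers Cd79a, Ms4a1, Vpreb1, Igll1 and Ebf1 had 0 reads in every library. The part of these other cells in the values below was not tested. In bulk RNA, fewer cells of a type and less RNA per cell cannot be told apart.

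No splicing factor or hnRNP gene passed the test between the genotypes, which was edgeR's quasi-likelihood test adjusted by Benjamini-Hochberg over all genes tested. Of the 48 that passed the filter on low counts, 0 had an adjusted p under 0.05, against 0.329% of all 8195 genes tested. At an unadjusted p under 0.05 the count was also 0 of 48, against 6.03% of all genes. The smallest adjusted p in the family was 0.900, for Hnrnpdl. DESeq2 gave 0 of the 42 for which it returned a p, against 3.13% of the 6195 genes to which it gave an adjusted p. It returned no p for the other 6, which are Hnrnpdl, Hnrnpl, Sf3b6, Srsf1, Srsf3 and Srsf4. Limma-voom gave 0 (0.0488% of all genes), and limma on the normalized table gave 0 for any gene. Fold changes are given as log2FC, the fitted log2 fold change of Foxm1 HET against WT, with its standard error (SE). The SE ran from 1.41 to 3.09. The p-values measure the spread between these libraries.

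Values of log2FC were above 0 for 20 genes and below 0 for 28, with a median of -0.41 against -0.26 for all genes tested. With RLE factors the genes split 24 and 24, with a median of -0.03 against -0.13 for all genes. With upper-quartile factors they also split 24 and 24, with a median of -0.02 against 0.14 for all genes. The genes' median less that of all genes was -0.15 with TMM, -0.16 with upper-quartile factors and 0.096 with RLE factors. That difference was -0.24 with library size only, -0.23 with at least 10 counts in every library and -0.62 with no filter. A replicate block gave -0.65, limma-voom -0.72, limma on the normalized table -0.099 and DESeq2 0.096. With a library left out it ran from -0.36 to 0.10. Without Foxm1 HET replicate 2, 15 were above 0 and 35 below, with a median of -0.60 against -0.30.

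By gene group, 5 Srsf genes were above 0 and 5 below, with a median log2FC of -0.34. For Hnrnp the counts were 7 and 13 with a median of -0.41, and for Sf3a and Sf3b 2 and 5 with a median of -1.13. The Snrp genes split 4 and 4 with a median of -0.13, and 2 U2af genes were above 0 and 1 below. None of these groups had a gene past the test, and the genes of a group are not replicates of a condition.

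**Figure D1:**
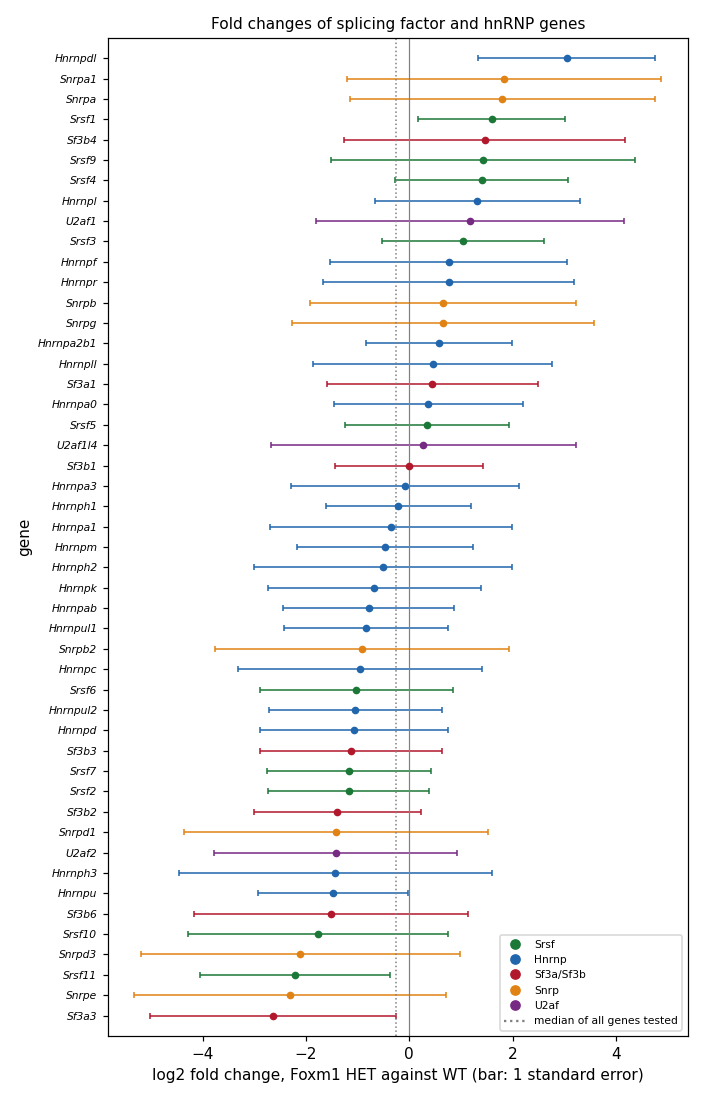
Fitted log2 fold changes of the 48 splicing factor and hnRNP genes tested (x axis, Foxm1 HET against WT), ordered by value and coloured by gene group, with bars of 1 standard error from edgeR and the median of all genes tested as a dotted line. Values run from -2.63 for Sf3a3 to 3.04 for Hnrnpdl, and no gene passed the test.

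On log2 CPM (TMM scaled, prior count 2), the 3 WT libraries lay entirely above or below the 3 Foxm1 HET libraries for 6 of the 48 genes (12.5%), against 8.68% of all genes tested. Srsf7, Srsf10, Srsf11 and Hnrnpu had the lower levels in Foxm1 HET, and Snrpa and Hnrnpa2b1 the higher. The count varied with the scaling. RLE factors gave 7 genes (8.83% of all genes), with all 6 kept and Sf3b2 added, and upper-quartile factors gave 4 of the 6 (8.57% of all genes), without Hnrnpu and Srsf7. With library size as the only scaling 0 of the 48 genes separated (7.97% of all genes), and on TPM, a level per gene length, also 0 (7.87%). In the deposited normalized values, Snrpa again and Hnrnph3 did (9.64% of all genes). For a single gene the two-sided exact permutation test cannot give a p under 0.1 with 3 libraries against 3, and each of the 6 genes had that p.

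**Figure D2:**
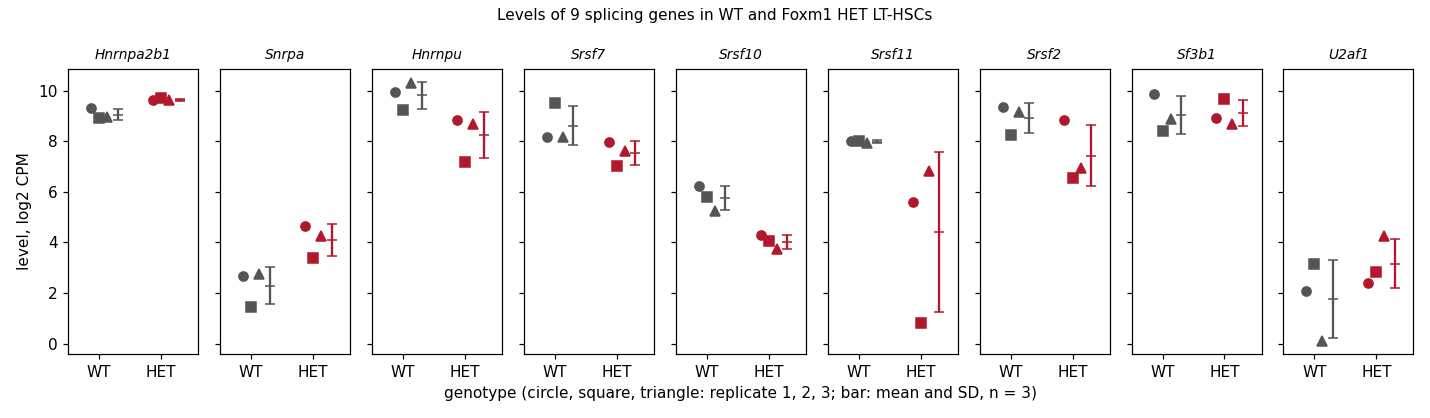
Levels of 9 splicing genes (y axis, log2 CPM) in each WT and Foxm1 HET library, with mean and SD (n = 3) beside the points. The first 6 panels are the genes whose genotypes did not overlap, and Srsf2, Sf3b1 and U2af1 follow, with overlapping genotypes.

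Among the SR protein genes, Srsf2, which recognises exonic enhancers, had 14311, 6790 and 9020 reads in WT against 17269, 603 and 5106 in Foxm1 HET. Its levels were 8.90 ± 0.59 log2 CPM (SD, n = 3) in WT against 7.43 ± 1.22 in Foxm1 HET. The genotypes overlapped, since Foxm1 HET replicate 1 lay above WT replicate 2. Its log2FC was -1.18 (SE 1.55, adjusted p = 0.998 by edgeR's quasi-likelihood test). Of its 50-base words, 20.7% also occur in another gene, so its counts are uncertain, to an extent that was not measured. Srsf2 lies on the minus strand of chromosome 11 of GRCm38, from 116849897 to 116853094.

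Srsf11 showed the steadiest WT levels of the genes that separated, with 5762, 5761 and 3918 reads, or 8.03, 7.99 and 7.94 log2 CPM. In Foxm1 HET it had 1849, 11 and 4751 reads, or 5.60, 0.83 and 6.83 log2 CPM. All 3 Foxm1 HET levels were below WT, and replicate 2 was far below the other two. The log2FC was -2.21 (SE 1.84, adjusted p = 0.982 by edgeR) and ran from -3.21 to -1.60 over the fits that each leave out a library.

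Srsf10, an SR protein known as a splicing repressor when dephosphorylated, had levels of 6.21, 5.80 and 5.25 log2 CPM in WT against 4.28, 4.07 and 3.74 in Foxm1 HET. The WT levels spread about as widely as the gap between the lowest WT and the highest Foxm1 HET level. The SD was 0.48 log2 CPM in WT and 0.27 in Foxm1 HET, with a difference of means of -1.73 (Foxm1 HET less WT). On TPM the genotypes overlapped, since Foxm1 HET replicate 1 lay above WT replicate 3. The log2FC of -1.77 had an SE of 2.51 (adjusted p = 0.998 by edgeR). Srsf7, an SR protein that also takes part in RNA export, had 8.15, 9.49 and 8.18 log2 CPM in WT against 7.97, 7.04 and 7.63 in Foxm1 HET. WT replicate 1 and Foxm1 HET replicate 1 were close, and the log2FC was -1.16 (SE 1.59).

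The SR protein genes Srsf1, Srsf3, Srsf4 and Srsf5 had their highest log2 CPM in Foxm1 HET replicate 2. On TPM this held for Srsf1, Srsf3 and Srsf4, while Srsf5 had 443 TPM in WT replicate 1 against 401 in Foxm1 HET replicate 2. Srsf1, the founding SR protein gene, had 6596, 12065 and 4715 reads in WT against 7076, 20201 and 3977 in Foxm1 HET. On the log2 CPM scale its level was 11.61 in Foxm1 HET replicate 2 and 6.57 to 9.06 in the other 5 libraries. Its log2FC of 1.59 (SE 1.42) ran from -1.36 to 2.08 over the fits that each leave out a library. Without Foxm1 HET replicate 2 it was -1.36, so the sign rested on that library.

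Srsf4 had 221, 6451 and 1016 reads in WT against 923, 5813 and 1016 in Foxm1 HET. WT replicate 2 and Foxm1 HET replicate 2 were high and the others low, and the log2FC was 1.40 (SE 1.68), and -2.26 without Foxm1 HET replicate 2. Of its 50-base words, 39.5% occur in another gene. For Srsf3, whose product also takes part in RNA export, levels were 7.10, 8.52 and 7.33 log2 CPM in WT against 7.69, 9.98 and 7.21 in Foxm1 HET. Its log2FC was 1.04 (SE 1.57), and -0.27 without Foxm1 HET replicate 2. Srsf5 had 8.25, 6.90 and 8.38 log2 CPM in WT against 7.47, 9.41 and 6.73 in Foxm1 HET, with a log2FC of 0.34 (SE 1.59), or -0.77 without Foxm1 HET replicate 2.

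Srsf12 was not tested, because it did not pass the filter. It had 0, 5316 and 0 reads in WT against 1, 0 and 3 in Foxm1 HET. Nearly all of its reads came from WT replicate 2.

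**Figure D3:**
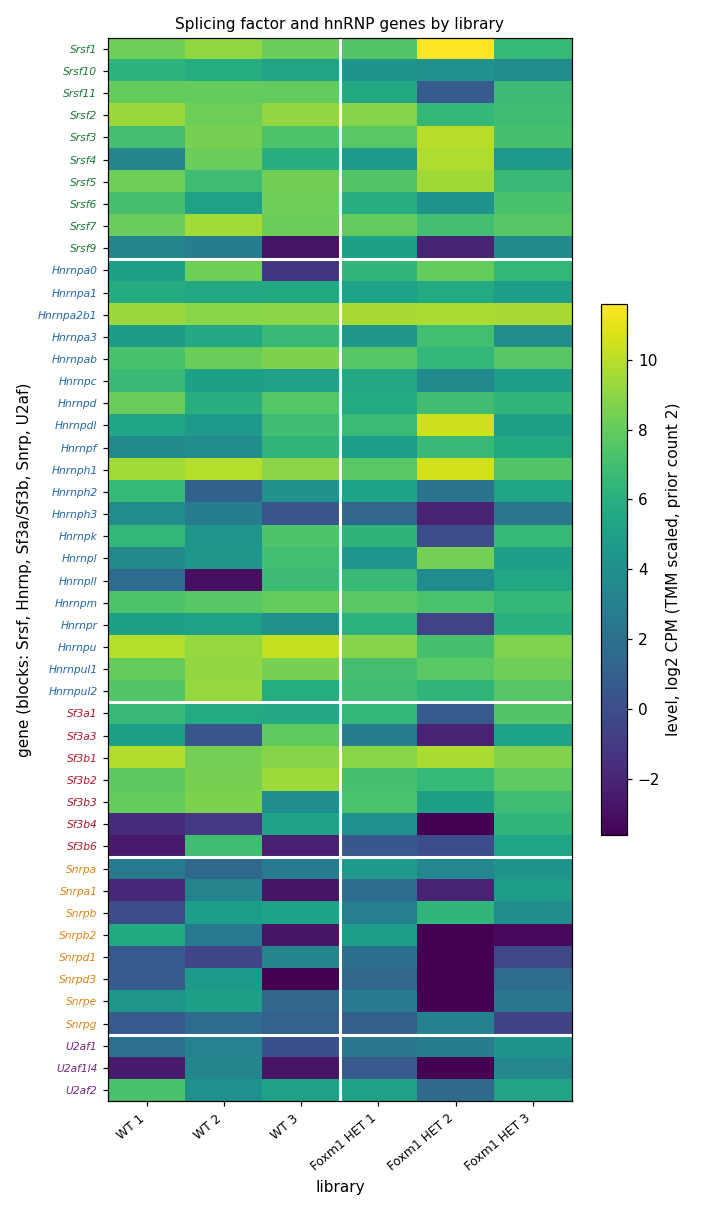
Levels of the 48 genes tested (rows, grouped as Srsf, Hnrnp, Sf3a/Sf3b, Snrp and U2af) in the 6 libraries (columns), as log2 CPM by colour. Foxm1 HET replicate 2 held the lowest level of 20 genes, ties included (41.7%, against 36.3% of all genes tested). It held the highest of 12 (25%, against 19.4% of all genes tested).

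Among the hnRNP genes, Hnrnpa2b1 had the smallest spread of log2 CPM in Foxm1 HET. Its product binds many RNAs and takes part in their sorting. It had 13888, 10955 and 7851 reads in WT against 29712, 5340 and 32762 in Foxm1 HET. Its levels were 9.29, 8.92 and 8.94 log2 CPM in WT against 9.61, 9.69 and 9.61 in Foxm1 HET. The TMM factors for Foxm1 HET were 1.54, 0.453 and 1.67, and the closeness of these levels rests on that scaling. The gap between the genotypes was narrow and the genotypes did not overlap, while on TPM they did, with 369, 271 and 179 in WT against 598, 197 and 742 in Foxm1 HET. The log2FC was 0.57 (SE 1.42, adjusted p = 0.998 by edgeR), from 0.48 to 0.77 with each library left out.

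Hnrnpu, which encodes a nuclear matrix protein also called SAF-A, had 21709, 13501 and 19914 reads in WT against 17378, 944 and 17258 in Foxm1 HET. Its levels were 9.94, 9.22 and 10.28 log2 CPM in WT against 8.83, 7.19 and 8.69 in Foxm1 HET. All Foxm1 HET levels were below WT, and replicate 2 was the lowest. For Hnrnpu the log2FC was -1.48 (SE 1.45), from -1.75 to -1.06 with each library left out.

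Hnrnpdl, a relative of Hnrnpd, had the smallest p of all 48 genes (0.0752 unadjusted, by edgeR's quasi-likelihood test). It had 875, 551 and 1995 reads in WT against 4210, 9160 and 1331 in Foxm1 HET. Foxm1 HET replicate 3 lay between WT levels, and Foxm1 HET replicate 2 held 81.0% of the gene's summed CPM. Hnrnpdl had a log2FC of 3.04 (SE 1.71), and 0.25 without Foxm1 HET replicate 2. Hnrnpl, a regulator of exon inclusion, followed the same library, with 8.44 log2 CPM in Foxm1 HET replicate 2 and 3.58 to 6.99 in the others, and a log2FC of 1.31 (SE 1.99) that was -1.01 without it.

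Hnrnph1, whose product binds runs of G, had the highest mean level per length, 561 TPM. It had 16252, 21389 and 8070 reads in WT against 7940, 9718 and 7591 in Foxm1 HET. Levels were 9.52, 9.89 and 8.98 log2 CPM in WT against 7.70, 10.55 and 7.50 in Foxm1 HET, where replicate 2 was above every WT library and the other two were below. On TPM replicate 2 was not the highest, with 658 against 792 and 970 in WT replicates 1 and 2. Its log2FC was -0.21 (SE 1.41), and -1.85 without Foxm1 HET replicate 2. Hnrnpul1, related to Hnrnpu, had 5666, 12681 and 5703 reads in WT against 5394, 1334 and 12806 in Foxm1 HET, with overlapping genotypes and a log2FC of -0.84 (SE 1.58).

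The hnRNP genes with the widest ranges of log2 CPM, Hnrnpll, Hnrnpa0, Hnrnpk and Hnrnpr, each had a library with few reads. Hnrnpk, whose product binds runs of C, had 1928, 442 and 2720 reads in WT against 2912, 6 and 4018 in Foxm1 HET. Hnrnpr had 691, 767 and 295 against 2904, 4 and 2721. In both, Foxm1 HET replicate 2 was far below the other 5 libraries. Hnrnpa0 had 703, 6837 and 6 reads in WT against 3163, 1674 and 3725 in Foxm1 HET. For Hnrnpll, known for its part in the splicing of CD45, WT replicate 2 had 1 read, where the other 5 libraries had 71 to 3897. Its counts of 71 in WT replicate 1 and 86 in Foxm1 HET replicate 2 were also low. Hnrnpa1, a repressor of exon inclusion, varied little on log2 CPM, with levels of 5.72, 5.57 and 5.60 in WT against 5.21, 5.67 and 4.84 in Foxm1 HET. On TPM it varied more, with 65.9, 56.4 and 37.8 in WT against 60.4, 25.9 and 57.5 in Foxm1 HET. The log2FC of Hnrnpa1 was -0.36 (SE 2.34).

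Some hnRNP counts are uncertain. Of the exon bases of Hnrnph3, 81.4% also belong to another annotated gene, and 20.5% of those of Hnrnpk do. Of the 50-base words of Hnrnpf, 61.9% occur in another gene, and 28.2% of those of Hnrnpa1 do.

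Among the U2 particle genes, Sf3b1, which encodes the largest SF3B subunit, had close mean levels in the genotypes. It had 20418, 7621 and 7425 reads in WT against 18520, 5287 and 17335 in Foxm1 HET. Its levels were 9.04 ± 0.74 log2 CPM (SD, n = 3) in WT against 9.10 ± 0.51 in Foxm1 HET. Sf3b1 had a log2FC of -0.01 (SE 1.44, adjusted p = 0.999 by edgeR), and its sign turned with the scaling, at 0.52 with RLE factors. Sf3b1 lies on the minus strand of chromosome 1 of GRCm38, from 54985169 to 55027478.

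Sf3b2, of the same complex, had 7.78, 8.49 and 9.35 log2 CPM in WT against 7.20, 6.59 and 7.81 in Foxm1 HET. The genotypes overlapped by a small margin, and the log2FC was -1.40 (SE 1.62). Sf3a3, of the SF3A complex, had the lowest log2FC of the 48 genes, -2.63 (SE 2.38), which was -0.21 without WT replicate 3 and -4.57 without Foxm1 HET replicate 3. It had 695, 28 and 3807 reads in WT against 255, 1 and 1538 in Foxm1 HET, so that the genotypes overlapped widely. Sf3b6, which contacts the branch point, had 2, 2735 and 2 reads in WT against 53, 6 and 1676 in Foxm1 HET, and Sf3b4 had 5, 9 and 574 against 648, 0 and 3482, with 45.3% of its 50-base words also in another gene. Each was high in 1 or a few libraries of both genotypes. Sf3b5 was not tested, with 1, 1 and 0 reads in WT against 141, 0 and 72 in Foxm1 HET.

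Of the U2af genes, U2af1, whose product reads the AG at the intron's end, had 92, 197 and 16 reads in WT against 199, 46 and 792 in Foxm1 HET. Its levels were 1.78 ± 1.54 log2 CPM (SD, n = 3) in WT against 3.17 ± 0.96 in Foxm1 HET, with overlapping genotypes. The log2FC was 1.17 (SE 2.98, adjusted p = 0.998 by edgeR). Of its 50-base words, 21.7% occur in another gene. U2af1 lies on the minus strand of chromosome 17 of GRCm38, from 31647082 to 31658754. U2af2, which encodes its partner, had a log2FC of -1.42 (SE 2.35), or 0.15 without WT replicate 1.

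The Snrp genes had few reads. Snrpa, which encodes the U1 particle's A protein, had 141, 60 and 106 reads in WT against 949, 68 and 805 in Foxm1 HET. Its levels were 2.69, 1.45 and 2.75 log2 CPM in WT against 4.64, 3.40 and 4.27 in Foxm1 HET. The genotypes did not overlap, although Foxm1 HET replicate 2 had fewer raw reads than WT replicates 1 and 3. The log2FC was 1.80 (SE 2.95, adjusted p = 0.998 by edgeR), and 20.2% of its 50-base words occur in another gene.

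Snrpe, which encodes an Sm ring protein, had 471, 709 and 42 reads in WT against 232, 0 and 211 in Foxm1 HET. A count of 0 in Foxm1 HET replicate 2 allows up to 0.206 CPM by library size, without the TMM factor and for counting error only. Snrpe had a log2FC of -2.31 (SE 3.01). Snrpb, which encodes the Sm proteins B and B′, had 21, 672 and 591 reads in WT against 281, 553 and 578 in Foxm1 HET, so that WT replicate 1 was the low library. Snrpg, another Sm gene and the shortest of the 52, had 34, 73 and 35 against 72, 55 and 23. Snrpc had 0, 0 and 33 reads in WT against 373, 0 and 4 in Foxm1 HET, and Snrpd2 had 8 reads in WT replicate 2 and 0 elsewhere. Neither was tested.

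At least 10 reads in all 6 libraries were found for 33 of the 52 genes (63.5%), against 20.6% of the normalized table's genes. The count was 9 of 11 for Srsf, 15 of 20 for Hnrnp, 4 of 8 for Sf3a and Sf3b, 3 of 10 for Snrp and 2 of 3 for U2af. The splicing genes had a median level of 5.40 log2 CPM against 2.82 for all genes tested, and the comparison was not matched on level. The genes' median SD within a genotype was 1.88 log2 CPM against 3.13.

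**Figure D4:**
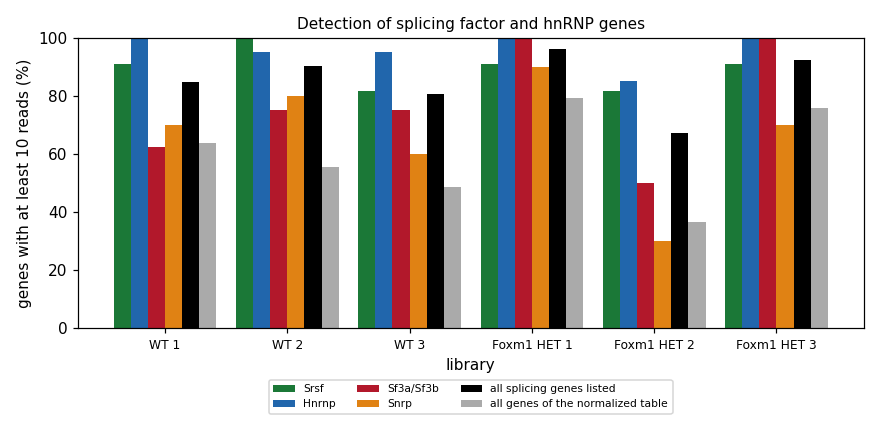
Share of genes with at least 10 reads (y axis, percent) in each library, for the Srsf, Hnrnp, Sf3a/Sf3b and Snrp genes, all 52 genes and all genes of the normalized table. Foxm1 HET replicate 2 had the lowest share in all 52 genes, 67.3%, and in all genes of the table, 36.4%.

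Of the 14 genes with under 1300 counted exon bases, 3 had at least 10 reads in all 6 libraries, and of the 38 longer genes 30 did. Over all genes of the table the shares were 7.78% and 23.1%. The limit of 1300 bases was set after the lengths and counts were seen.

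**Figure D5:**
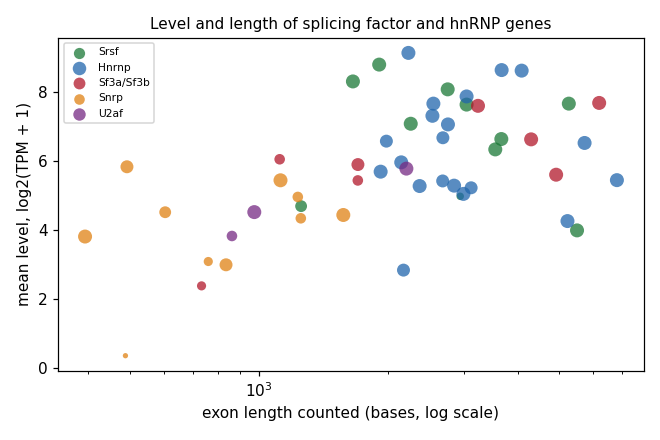
Mean level over the 6 libraries (y axis, log2 of TPM + 1) against counted exon length (x axis, bases, log scale) for the 52 genes, coloured by gene group, with larger points where more libraries had at least 10 reads. The Snrp genes lie at the short end, from 393 to 1570 bases.

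The reads of all 52 genes together made up 0.865%, 0.845% and 0.607% of the library in WT against 0.793%, 0.555% and 0.813% in Foxm1 HET. The genotypes overlapped. For 13 of the 48 genes tested (27.1%), 1 library held over 50 percent of the summed CPM, against 60.8% of all genes tested. Across the 48 genes, the correlation of log2 CPM between libraries was 0.420 to 0.709 within WT, 0.577 to 0.728 within Foxm1 HET and 0.571 to 0.848 between the genotypes. These correlations are across genes of shared libraries and are given as a description.

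Other genes of the pathway were taken from a pair of lists. Of 59 core spliceosome genes found, 52 were tested, and 30 had a log2FC above 0 and 22 below, with a median of 0.41. Of all genes tested, 3724 were above 0 and 4471 below, with a median of -0.26. The median of all genes moved to 0.14 with upper-quartile factors, and the medians of the lists are given with TMM only. By edgeR 0 of the 52 core spliceosome genes had an adjusted p under 0.05. At an unadjusted p under 0.05 there were 3 (5.77%), near the 6.03% of all genes. DESeq2 gave 2 at the adjusted threshold (Dhx8 and Lsm8) of 39 with an adjusted p, against 3.13% of all genes with an adjusted p, and limma-voom 0. The 3 genes of edgeR were Ddx23, Dhx38 and Dhx8, each an RNA helicase gene. Ddx23 had 955, 280 and 404 reads in WT against 1311, 12496 and 51 in Foxm1 HET, with a log2FC of 4.60 (SE 1.80) that was -0.53 without Foxm1 HET replicate 2. Dhx38 had 114, 486 and 662 reads in WT against 1094, 10121 and 901 in Foxm1 HET, and Dhx8 had 318, 5 and 4 against 650, 2872 and 2444. Foxm1 HET replicate 2 had the highest count for all 3, and without it the log2FC of Dhx38 was 0.21 and that of Dhx8 2.97. Among the genes below 0, Snrnp40, Txnl4a and Puf60 had the smallest p, with log2FC of -2.94, -2.38 and -2.83. Without WT replicate 3, Snrnp40 was at -1.43 and Txnl4a at 2.07, so the sign of Txnl4a rested on that library. Zrsr2, a minor spliceosome gene also mutated in myelodysplastic syndromes, had a log2FC of 0.49 (SE 2.498), or -1.05 without Foxm1 HET replicate 1 and -0.03 without WT replicate 3.

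Of 46 splicing regulators, 44 were tested, 20 above 0 and 24 below, with a median of -0.39 against -0.26 for all genes tested. By edgeR 0 had an adjusted p under 0.05. At an unadjusted p under 0.05 there were 2 (4.55%), against 6.03% of all genes. DESeq2 and limma-voom gave 0 at the adjusted threshold, and edgeR with upper-quartile scaling gave 1, Mbnl2, against 0.525% of all genes. Mbnl2, which regulates developmental exon switches, had 1245, 161 and 446 reads in WT against 10253, 32623 and 4831 in Foxm1 HET. All Foxm1 HET counts were above all WT counts, and the log2FC was 5.89 (SE 1.67, adjusted p = 0.0859), or 2.72 without Foxm1 HET replicate 2. Ptbp2, a relative of the polypyrimidine tract protein, had 1517, 1358 and 10849 reads in WT against 9, 2 and 974 in Foxm1 HET, with a log2FC of -5.08 (SE 2.13, adjusted p = 0.593), which was -3.06 without WT replicate 3 and -9.89 without Foxm1 HET replicate 3. The next in order of p were Elavl1 and Srpk2 above 0 (log2FC 2.34 and 1.99) and Taf15 and Srek1 below 0 (-3.58 and -2.37). Without Foxm1 HET replicate 2, Elavl1 was at -1.32 and Srpk2 at -0.60, and without WT replicate 2, Taf15 was at -1.73.

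The 250 bases upstream of each annotated start were read from RefSeq (GRCm38.p6) for the 45 of 52 genes that had an entry. These genes have 60 such windows, and a gene counted if any of its windows held the pattern. In all, 11 short patterns were searched on both strands, after the expression values were seen, and every one is given here as a description with no test. The forkhead core TAAACA occurred in 1 gene, Srsf6 (2.22%), against 9.31% of the table's genes with a window. The cell cycle element TTTGAA occurred in 15.6% against 13.1%, CCAAT in 46.7% against 40.1% and TATAAA in 11.1% against 8.14%. The patterns GGAAGT (44.4% against 27.4%), ACTTCCG (24.4% against 11.4%) and GGGCGG (73.3% against 62.8%) had higher shares among the splicing genes, and the reverse complement of GGAAGT lies within ACTTCCG. For CTTTCC the shares were 33.3% and 26.8%, for CACGTG 8.89% and 9.98%, for CGCGAAA 2.22% and 1.77% and for TTTCGCGC 2.22% and 0.675%. The single CGCGAAA and TTTCGCGC matches lie in a second Snrpa window that is not printed. With only the window of the most upstream start, the share was 0 for both, 2.22% for TAAACA against 7.58% of the table's genes, 42.2% for GGAAGT against 24.1% and 22.2% for ACTTCCG against 10.1%. A match of letters is not a binding site.

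The window of the most upstream start is printed for Srsf6, the only gene with the forkhead core, and for Hnrnpa2b1, Snrpa and Hnrnpu, whose genotypes did not overlap and whose printed windows hold no annotated exon. Capitals mark the forkhead core, the cell cycle element and the CCAAT box on either strand. The windows are chr2:162931258-162931507 (plus strand), chr6:51469895-51470144, chr7:27196272-27196521 and chr1:178337816-178338065 (minus strand).
Srsf6: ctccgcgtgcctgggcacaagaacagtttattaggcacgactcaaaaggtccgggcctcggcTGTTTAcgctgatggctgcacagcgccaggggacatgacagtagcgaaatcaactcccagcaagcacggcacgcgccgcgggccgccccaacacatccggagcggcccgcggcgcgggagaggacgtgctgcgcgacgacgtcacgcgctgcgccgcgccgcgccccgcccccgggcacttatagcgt
Hnrnpa2b1: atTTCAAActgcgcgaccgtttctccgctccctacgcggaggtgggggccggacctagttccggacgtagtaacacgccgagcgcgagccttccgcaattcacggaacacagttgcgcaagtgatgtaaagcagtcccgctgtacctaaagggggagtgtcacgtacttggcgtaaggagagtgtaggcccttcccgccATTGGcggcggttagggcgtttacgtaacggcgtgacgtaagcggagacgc
Snrpa: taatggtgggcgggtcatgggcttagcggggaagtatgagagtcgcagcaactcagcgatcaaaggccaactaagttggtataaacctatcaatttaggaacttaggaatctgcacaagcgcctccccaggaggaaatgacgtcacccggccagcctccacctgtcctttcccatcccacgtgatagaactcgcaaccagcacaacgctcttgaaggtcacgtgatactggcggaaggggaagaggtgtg
Hnrnpu: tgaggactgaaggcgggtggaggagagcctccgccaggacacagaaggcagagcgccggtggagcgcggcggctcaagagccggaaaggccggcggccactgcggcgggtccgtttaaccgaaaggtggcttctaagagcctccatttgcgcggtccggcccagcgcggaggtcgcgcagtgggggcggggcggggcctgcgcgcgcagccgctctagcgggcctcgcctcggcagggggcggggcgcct
The Hnrnpa2b1 window holds 1 cell cycle element and 1 CCAAT box, both on the opposite strand, and the Snrpa and Hnrnpu windows hold none of the 3 marked patterns.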

How the data were processed

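The deposited counts are unnormalized reads for each of 27179 genes, made by the authors from single reads aligned to GRCm38 with STAR 2.7.2b (submitters' processing notes); the counting program and its use of strand are not given in the sources used here. The authors also deposited a normalized log2 table of 12179 genes. The labels and the study's methods name different library kits. Every per-sample column was matched to a sample by name. Counts were fitted with edgeR 4.0.16 in R 4.3.3 (filterByExpr, TMM, quasi-likelihood test, Benjamini-Hochberg over 8195 genes). The SE was taken as log2FC over the root of the F statistic. DESeq2 used independent filtering at 0.05. Log2 CPM used a prior count of 2, and TPM was computed from counts and exon length. Single genes were also compared by a two-sided exact permutation test.

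The gene group and the lists were chosen with earlier results of these data known. The 20 genes chosen by rule were the 3 mutated in myelodysplastic syndrome, the 5 highest in TPM, the 5 with the smallest p in each direction, those whose genotypes did not overlap, and up to 6 with at least 100 reads in every library, by their lowest CPM. From the lists, up to 3 genes in each direction with the smallest p were named, and Zrsr2. The 4 genes that were not tested are all given. Hnrnpa0, Hnrnpk, Hnrnpr, Hnrnpll, Hnrnpa1, Sf3b4, Sf3b6, Snrpb, Snrpg and U2af2 were named after their values were seen. The 11 promoter patterns, the search of 1 window per gene, the printed windows and the length limit were chosen after the data were seen.

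Alternatives were scaling by RLE, by upper quartile or by library size alone, 2 other count filters, the replicate block, each library left out, DESeq2 1.42.0, limma-voom and limma 3.58.1 on the normalized table. The fit was first run on simulated counts as a check of the code. How large a change it could detect at the spread of these libraries is not given here. Depth was 14573002 to 25798509 reads a library. Duplicates made by PCR are not marked, so counting limits cover counting error only.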

Additional observations from a re-analysis of the deposited data

How the results depend on the processing

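No splicing factor or hnRNP gene had an adjusted p under 0.05 in any of the 15 alternative fits, of which DESeq2 returned no p for 6 of the 48. Over all genes the count was 27, and 10 with RLE, 43 with upper-quartile, 7 with library-size scaling, 0 with at least 10 counts in every library, 0 with the replicate block, 194 with DESeq2, 4 with limma-voom, 0 with limma on the normalized table and 0 to 29 with a library left out. The scalings moved the median log2 fold change of all genes by 0.13 (RLE), 0.40 (upper-quartile) and 0.36 (library size). Splicing genes with an unadjusted p under 0.05 numbered 1 with upper-quartile scaling (Hnrnpdl), 1 with no filter (Srsf12) and 1 on the normalized table (Snrpa). Genes with non-overlapping genotypes numbered 6, and 7 with RLE (all 6 kept), 4 with upper-quartile (all among the 6), 0 with library size only, 2 of 33 with at least 10 counts (10.1% of all genes), 2 on the normalized table and 0 on TPM. With a library left out they numbered 8 to 13, or 16.3% to 26.0% against 15.0% to 21.6% of all genes. All 6 were among them each time. This was near certain beforehand, since a separated gene stays separated when a library is removed, apart from rescaling. Core spliceosome genes with an unadjusted p under 0.05 numbered 5 with RLE, 0 with library size only, 0 with the replicate block, 7 with DESeq2, 1 with limma-voom and 2 to 3 with a library left out. Splicing regulators numbered 1 with library size only, 1 with at least 10 counts, 1 with DESeq2, 1 with limma-voom, 4 on the normalized table and 1 to 2 with a library left out. The median of the splicing genes ran from -0.60 to -0.09 with a library left out.

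Signs turned for Hnrnph1 (0.64 with RLE, 0.092 with upper-quartile, 0.64 with DESeq2), Sf3b1 (0.52, 0.32, 0.067 with library size only, 0.021 with no filter, 0.051 with the replicate block, 0.52 with DESeq2, 0.52 on the normalized table), Srsf1 (-0.048 with the block, -0.93 with limma-voom), Srsf4 (-0.51 with limma-voom) and Srsf5 (-0.11 with the block, -0.42 with limma-voom). With a library left out, values ran from -1.85 to 0.19 for Hnrnph1, -1.01 to 2.98 for Hnrnpl, -0.30 to 0.55 for Sf3b1, -1.36 to 2.08 for Srsf1, -0.27 to 1.59 for Srsf3, -2.26 to 3.09 for Srsf4 and -0.77 to 0.74 for Srsf5. Sf3a3 kept its sign and ran from -4.57 to -0.21. The 1-window search, added after the data were seen, moved the shares of CGCGAAA and TTTCGCGC from 2.22% to 0. The causes were not tested. Deviations from the genotype means had r of 0.02, -0.03 and -0.07 between same-numbered libraries. With the large spread within a genotype, these values cannot tell whether the numbers pair the mice.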
